A study of Mus musculus with 8 samples.

Results

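The genes described here are 37 genes of ribosome biogenesis, chosen by function from the nucleolar and ribosome assembly genes of the mouse, out of 14109 genes tested on the same arrays. All 37 were measured, and each of them lay well above background on all 8 arrays. The RNA came from granulocyte progenitors (GPs), bone marrow cells committed towards granulocytes, isolated from mice as primary cells in 2 independent experiments. The 4 groups of 2 one-colour arrays were Flt3+ GPs and Flt3- GPs of mice labelled Irf8 deficient (Irf8KO), and Flt3+ GPs and Flt3- GPs of wild-type (WT) mice. Flt3 is a cytokine receptor of early haematopoietic progenitors, and Irf8 is a transcription factor that steers myeloid progenitors. The sources used here do not give the strain, the age, the gates of the isolation, the form of the Irf8 allele or the number of animals behind a sample. Levels are given in log2 with each array's 75th percentile set to 0, and a difference is the first group minus the second. Calls required an adjusted p under 0.05 in limma, which moderates the spread of each gene with that of all genes. Nothing says that the 2 samples of a group came from different animals, so a p-value speaks of sample spread that could be technical.

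Ribosomes are built in the nucleolus. RNA polymerase I transcribes the long precursor of the ribosomal RNAs, small nucleolar ribonucleoproteins (snoRNPs) modify it, and large complexes of assembly factors fold, cut and package it into the precursors of the small and the large ribosomal subunit. The genes of this pathway are usually expressed together, at a level that follows the growth rate of the cell, and many of them are textbook targets of MYC, which binds the E-box CACGTG with its partner MAX. In the bone marrow, cycling myeloid progenitors make many ribosomes and reduce this output as they mature.

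The 37 genes lie on 17 chromosomes, so they share no common locus. Promoter sequences of 300 bases, from 250 before to 50 after the gene start, were given by RefSeq (GRCm38.p6) for 32 of the 37 genes. The E-box CACGTG, which reads the same on both strands, was found in 7 of these 32 genes (21.9%), in 11.1% of the other genes tested and in 8.09% of all genes with a promoter entry. The ETS motif CCGGAAG, searched on both strands, was found in 10 of the 32 (31.2%), in 18.0% of the other genes tested and in 9.93% of all genes. The motif CCAAT was found in 34.4% of the 32 genes, against 42.9% of the other genes tested, and TATAAA in 6.25% against 10.4%. GCGCATG, the motif of NRF1, was found in 3 of the 32 (9.38%), against 7.20% of the other genes tested. No test was made of these shares, and a match describes the letters only. The median GC content of the promoters was 59.0%, against 59.7% for the other genes tested.

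The 7 E-box windows are shown because this is the one motif of the set whose textbook factor is tied to the pathway. In 6 of the 7 genes the E-box begins 2 to 40 bases after the annotated gene start, and in Nop2 it begins 60 bases before it. Each line gives 30 bases of GRCm38.p6 in the direction of the gene, with the motif in capitals.
Wdr43, chr17:71616220-71616249, plus strand: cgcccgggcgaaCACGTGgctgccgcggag
Utp20, chr10:88826765-88826794, minus strand: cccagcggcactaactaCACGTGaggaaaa
Tsr1, chr11:74898092-74898121, plus strand: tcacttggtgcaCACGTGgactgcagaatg
Pno1, chr11:17211540-17211569, minus strand: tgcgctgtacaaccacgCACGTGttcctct
Pes1, chr11:3963965-3963994, plus strand: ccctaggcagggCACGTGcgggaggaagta
Nop2, chr6:125131811-125131840, plus strand: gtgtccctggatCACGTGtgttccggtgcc
Mybbp1a, chr11:72441347-72441376, plus strand: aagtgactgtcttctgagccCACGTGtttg
All 7 genes were called lower in WT Flt3+ than in WT Flt3- GPs, as were 35 of the 37 genes and 39.1% of all genes tested. With arrays scaled by quantiles Tsr1, Pes1 and Mybbp1a lost that call. Pno1 had the largest difference of the 37 genes between the WT populations. Pes1 alone of the 7 was not called between genotypes in Flt3- GPs. Its main probe differed there by 0.01 and its other probe by -0.23, neither of them called.

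The ETS windows of 4 genes described below follow in the same form, with the motif, or its reverse complement CTTCCGG in Noc3l, in capitals. They are shown because Nolc1, Nhp2 and Heatr1 were highest in WT Flt3- GPs, as most of the set was, and Noc3l was not. The 4 were picked by their signals from the 10 genes with the motif. A link between motif and signal was not tested.
Nolc1, chr19:46075822-46075851, plus strand: cgcgtgtgggaCCGGAAGcaacttctagat
Nhp2, chr11:51619739-51619768, plus strand: cacttgaaaacCCGGAAGtgatgtcggagg
Heatr1, chr13:12395348-12395377, plus strand: gtagtgagaagCCGGAAGttcctatgaggc
Noc3l, chr19:38819194-38819223, minus strand: gctgaaagcgtCTTCCGGtttgggaaaggt

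On each array 54.9 to 60.1% of 59305 spots lay well above background and none was saturated. Arrays of the same group correlated across genes at r = 0.9958 to 0.9973. Flt3 RNA followed the population labels, with 6.29 and 6.30 in Irf8KO Flt3+ GPs, 2.71 and 2.68 in Irf8KO Flt3- GPs, 6.21 and 6.21 in WT Flt3+ GPs and 1.69 and 1.66 in WT Flt3- GPs. Irf8 RNA did not follow the genotype labels. It measured 6.67 and 6.67 in Irf8KO Flt3+ GPs and 5.64 and 5.53 in Irf8KO Flt3- GPs, against 5.80 and 5.87 in WT Flt3+ GPs and 4.85 and 4.88 in WT Flt3- GPs. The position of its probe relative to the deletion is unknown here, so this value checks nothing about the deletion, and Irf8KO below means the arrays labelled so. All 12 granulocyte progenitor markers listed were measured, and their summed signal, in multiples of the 75th percentile of the array, was 1403 to 1405 in Irf8KO Flt3+ GPs, 2686 to 2927 in Irf8KO Flt3- GPs, 907 to 986 in WT Flt3+ GPs and 2352 to 2493 in WT Flt3- GPs. WT arrays lay in one row of the slide and Irf8KO arrays in the other, and each population had its own columns, so that position and group cannot be told apart.

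The ribosome biogenesis genes were highest in WT Flt3- GPs, and the other 3 groups lay close together below. The WT Flt3- mean was the highest of the 4 group means for 35 of the 37 genes, the exceptions being Pes1 and Noc3l, against 35.7% of all genes tested. For 34 of the 37 both WT Flt3- arrays lay above all 6 other arrays, against 26.8% of all genes. The median of the 37 genes relative to each gene's mean over the 8 arrays was -0.05 and -0.04 on the Irf8KO Flt3+ arrays, -0.12 and -0.08 on the Irf8KO Flt3- arrays, -0.16 and -0.12 on the WT Flt3+ arrays, and 0.29 and 0.30 on the WT Flt3- arrays. Only the last pair stood apart. The lowest group mean was that of WT Flt3+ GPs for 20 genes, of Irf8KO Flt3- GPs for 12, of Irf8KO Flt3+ GPs for 4 and of WT Flt3- GPs for 1, which was Noc3l. In RNA of whole populations, fewer cells of a type and less RNA per cell cannot be told apart.

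**Figure D1:**
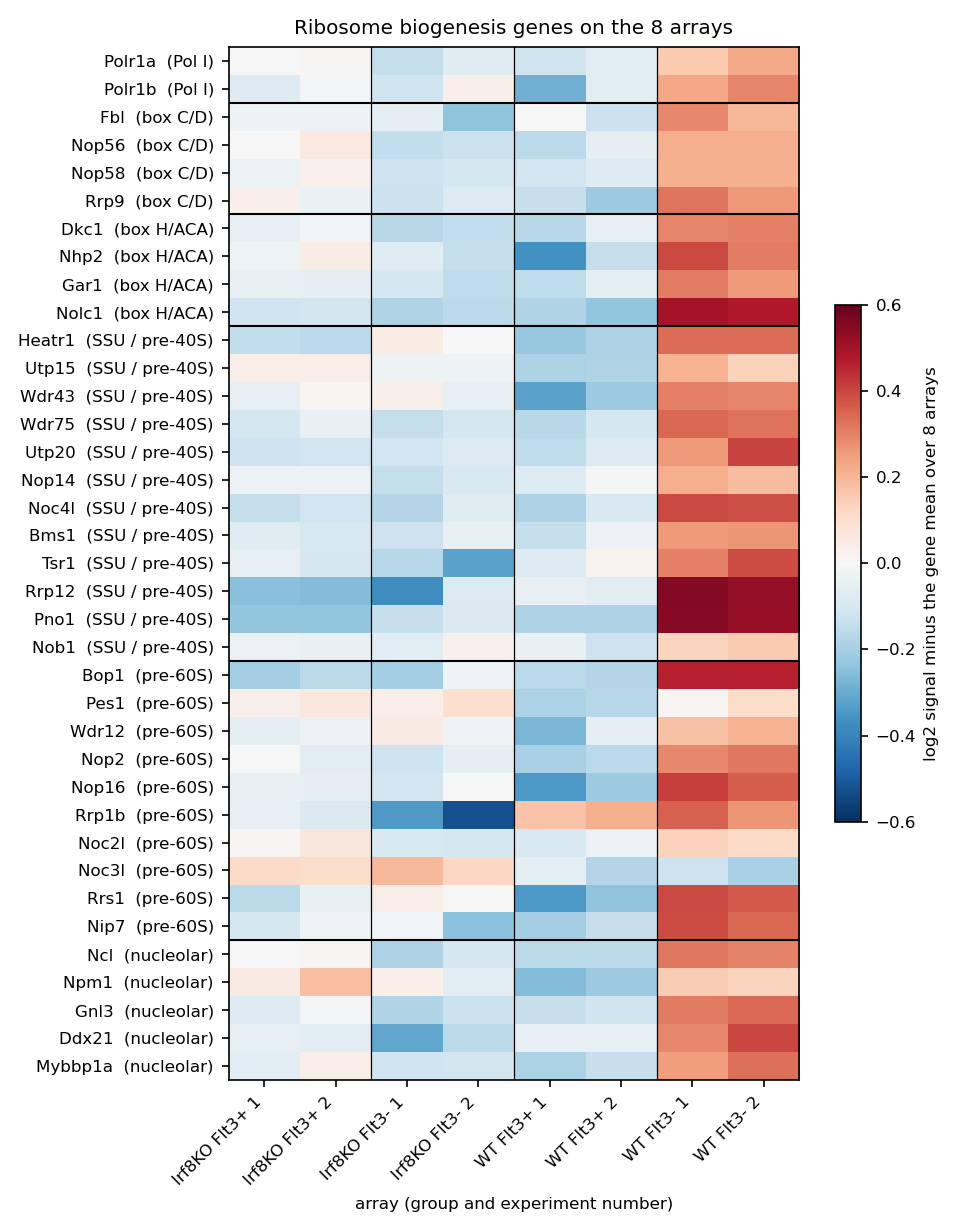
Log2 signal of the 37 ribosome biogenesis genes on each of the 8 arrays (columns, by group and experiment), less the mean of that gene over the 8 arrays (colour), with genes in rows grouped by role. Both WT Flt3- columns are above 0 for nearly all genes, with Noc3l as the exception, while the other 6 columns are near or below 0 for most genes. Genes above 0 there include Rrp1b in WT Flt3+, Npm1 in Irf8KO Flt3+ and Noc3l in the Irf8KO columns.

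Flt3+ and Flt3- GPs of WT mice were compared first, to ask how the pathway differs between the populations. Of the 37 genes, 35 were lower in WT Flt3+ GPs than in WT Flt3- GPs and 0 were higher, while 39.1% of all genes tested were called lower and 22.6% higher. The median difference of the 37 genes was -0.44, beside -0.115 for all genes. Both WT Flt3+ arrays lay below both WT Flt3- arrays for 36 of the 37 genes, against 49.9% of all genes, and above them for 0, against 30.4%. Rrp1b, with a difference of -0.12, and Noc3l, with 0.04, were not called. The SE of the differences ran from 0.039 to 0.093, and the adjusted p of the called genes from 3.58e-05 to 0.0174. The difference was alike in both experiments, with a median of -0.45 in the first and -0.43 in the second.

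Both RNA polymerase I subunits among the 37 genes were lower in WT Flt3+ GPs. Polr1b, one of the large subunits that form the catalytic centre, had 2.27 and 2.49 in WT Flt3+ GPs, against 2.79 and 2.85 in WT Flt3- GPs. The groups did not overlap, and the difference was -0.44 ± 0.089 (SE; adjusted p = 0.00648). Polr1a, the largest subunit, differed by -0.28, and by -0.06 without a call under quantile scaling. Of the subunits outside the 37 genes, Polr1d was lower (-0.51), while Polr1c (-0.15) and Polr1e (-0.11) were not called.

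All 8 snoRNP genes were lower in WT Flt3+ GPs, although Fbl, Nop56, Nop58 and Gar1 lost the call under quantile scaling. Among the box C/D proteins, Rrp9, the protein that marks the U3 snoRNP, had 1.86 and 1.78 in WT Flt3+ GPs and 2.32 and 2.26 in WT Flt3- GPs (difference -0.47 ± 0.051 SE, adjusted p = 0.00053). The methyltransferase fibrillarin (Fbl) and the scaffold proteins Nop56 and Nop58 differed by -0.33 to -0.31. Among the box H/ACA proteins, which carry the pseudouridine synthase Dkc1, the largest difference by the main probes was that of Nolc1, a chaperone that gathers snoRNPs. Nolc1 had 4.18 and 4.12 in WT Flt3+ GPs, against 4.86 and 4.84 in WT Flt3- GPs, a 1.62-fold lower signal (difference -0.70 ± 0.042 SE, adjusted p = 4.96e-05). Both WT Flt3- values were far above the pair of WT Flt3+ values, which differed by much less between themselves. Another probe of Nolc1 differed by -0.43. Nhp2, an RNA-binding core protein of the box H/ACA snoRNPs, differed by -0.61, Dkc1 by -0.40 and Gar1 by -0.39.

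All 12 factors of the small subunit were lower in WT Flt3+ GPs, by -0.72 to -0.23. They act in the small subunit processome, the first large assembly on the nascent precursor, and on the pre-40S particle that leaves it. Pno1, the partner of the endonuclease Nob1, had 3.55 on both WT Flt3+ arrays, against 4.28 and 4.26 on the WT Flt3- arrays. Its 1.64-fold lower signal in WT Flt3+ GPs was the largest difference of the 37 genes (difference -0.72 ± 0.039 SE, adjusted p = 3.58e-05). Nob1, which makes the final cut of the small subunit rRNA, differed by -0.23. The scaffold proteins Heatr1, Wdr43, Wdr75 and Utp15, which join the precursor early, differed by -0.54, -0.57, -0.47 and -0.36, and another probe of Wdr43 by -0.27.

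Of the 10 large subunit factors 8 were lower in WT Flt3+ GPs. Rrs1, known in yeast for bringing the small 5S particle into the pre-60S ribosome, had 2.79 and 2.89 in WT Flt3+ GPs, against 3.53 and 3.5 in WT Flt3- GPs (difference -0.67 ± 0.061 SE, adjusted p = 0.000262). Of the 3 proteins of the PeBoW complex, which act together in large subunit processing, Bop1 differed by -0.64, Wdr12 by -0.35 and Pes1 by -0.24. Another probe of Pes1 differed by -0.55, and the genes were not tested against each other. Of the other factors, the nucleolar protein Nop16 differed by -0.67, the rRNA methyltransferase family member Nop2 by -0.48 and Nip7 by -0.54. Another probe of Nip7 differed by 0.17 in the opposite direction, so the value of this gene depends on the probe.

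All 5 abundant nucleolar proteins and regulators were lower in WT Flt3+ GPs, by -0.47 to -0.38 on their main probes, although Npm1, Ddx21 and Mybbp1a lost the call under quantile scaling. Nucleolin (Ncl), which binds the nascent rRNA, had 6.55 on both WT Flt3+ arrays, against 7.03 and 7.01 on the WT Flt3- arrays (difference -0.47 ± 0.044 SE, adjusted p = 0.000291). Another probe of Ncl differed by -0.24, and its main probe by -0.12 under quantile scaling. The histone and ribosomal protein chaperone nucleophosmin (Npm1) had 7.74 and 7.78 in WT Flt3+ GPs and 8.15 and 8.13 in WT Flt3- GPs. The nucleolar GTPase Gnl3, the helicase Ddx21 and the polymerase I regulator Mybbp1a differed by -0.46, -0.40 and -0.46, and another probe of Ddx21 by -0.66.

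Scaling by quantiles instead of the 75th percentile moved the median of all genes from -0.115 to -0.013 and left 24 of the 37 genes called, 23 lower and 1 higher, with a median of -0.21. Under that scaling Fbl (0.01), Nop56 (0.03) and Noc2l (0.11) turned direction. Of the 35 calls 11 were lost, namely those named above for each role and those of Tsr1 (-0.18), Pes1 (-0.07) and Wdr12 (-0.19). Over all genes 4122 were called lower and 4195 higher, against 5523 lower and 3193 higher with the main scaling.

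**Figure D2:**
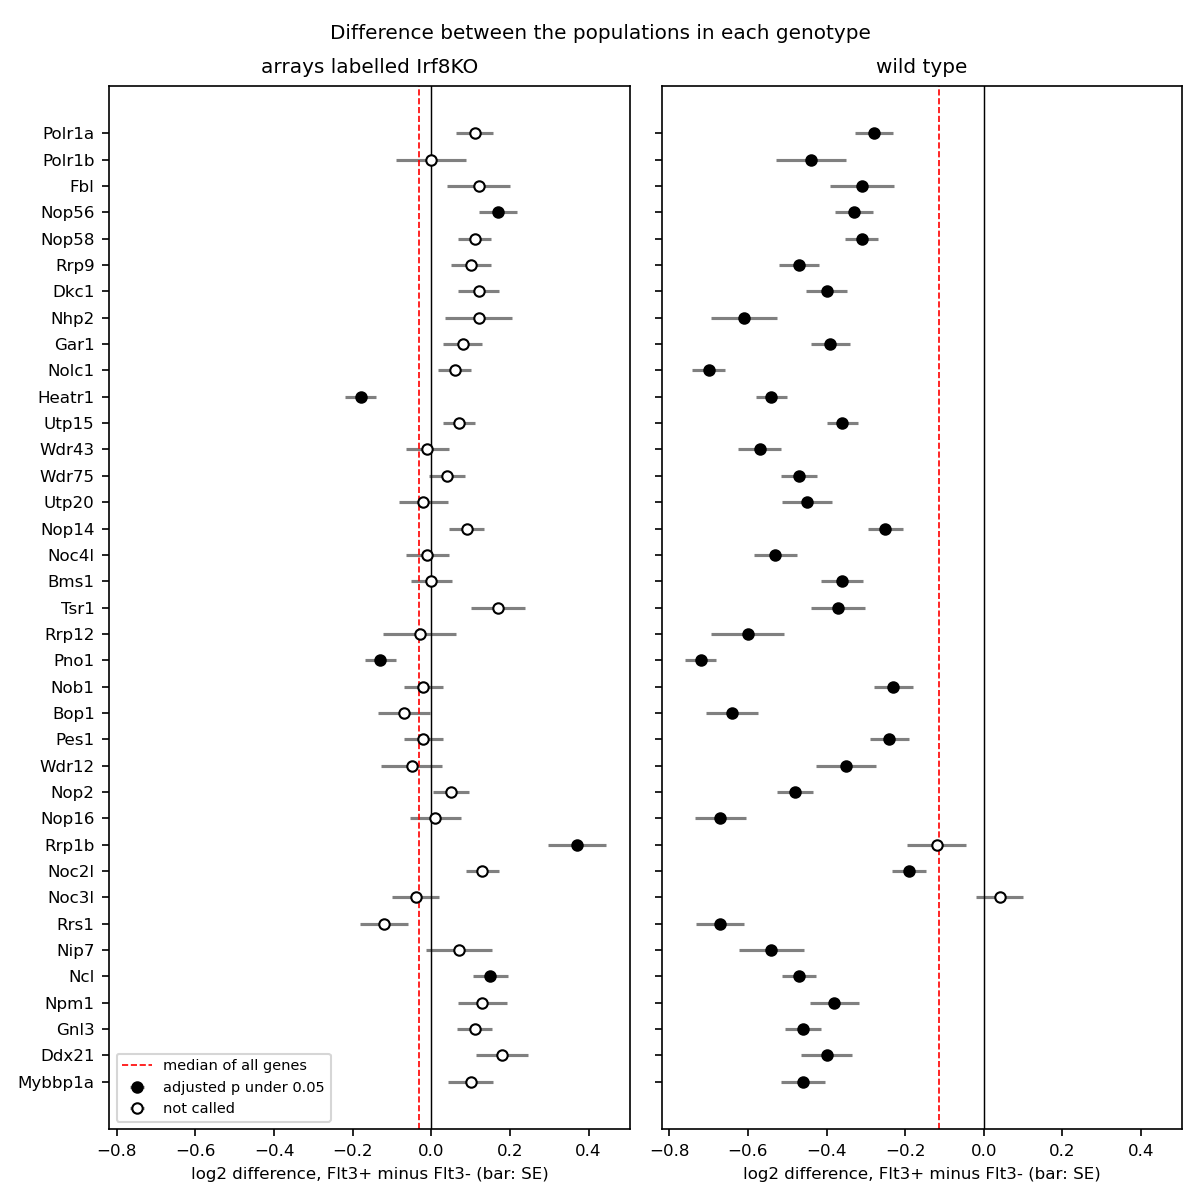
Log2 difference Flt3+ minus Flt3- (points, with SE bars) of each of the 37 genes in Irf8KO GPs (left) and WT GPs (right), with filled points at an adjusted p under 0.05 and a dashed line at the median of all genes. WT points lie left of 0 for all genes but Noc3l, with Fbl, Nop56 and Noc2l turning direction under quantile scaling, whereas Irf8KO points lie around 0, from -0.18 for Heatr1 to 0.37 for Rrp1b.

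In Irf8KO mice the same comparison gave small differences of both signs. Of the 37 genes 2 were called lower and 3 higher in Irf8KO Flt3+ GPs than in Irf8KO Flt3- GPs, while 23.7% of all genes were called lower and 22.0% higher. The median difference was 0.07 for the 37 genes, beside -0.031 for all genes. The arrays of the populations did not overlap for 19 genes with Irf8KO Flt3+ above, against 34.7% of all genes, and for 5 with it below, against 41.7%. Heatr1, a scaffold of the early small subunit processome that is also needed for transcription by RNA polymerase I in human cells, had 4.81 and 4.80 in Irf8KO Flt3+ GPs, against 5.0 and 4.96 in Irf8KO Flt3- GPs (difference -0.18 ± 0.040 SE, adjusted p = 0.0143). Pno1 had 3.5 on both Irf8KO Flt3+ arrays and 3.60 and 3.65 on the Irf8KO Flt3- arrays (difference -0.13 ± 0.039 SE, adjusted p = 0.038). Heatr1 and Pno1 were the genes called lower. The 3 called higher were Rrp1b, Nop56 and Ncl. Rrp1b, a nucleolar protein related to the yeast large subunit factor Rrp1, had 1.18 and 1.14 in Irf8KO Flt3+ GPs, against 0.89 and 0.70 in Irf8KO Flt3- GPs (difference 0.37 ± 0.074 SE, adjusted p = 0.00907). Nop56 had 6.04 and 6.10 in Irf8KO Flt3+ GPs and 5.89 and 5.91 in Irf8KO Flt3- GPs (difference 0.17 ± 0.049 SE, adjusted p = 0.0354). Ncl had 6.71 and 6.72 in Irf8KO Flt3+ GPs and 6.53 and 6.61 in Irf8KO Flt3- GPs (difference 0.15 ± 0.044 SE, adjusted p = 0.0373).

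Each of these 5 calls was lost when one or another array was left out. The count was 0 without Irf8KO Flt3+ array 1, 1 without Irf8KO Flt3+ array 2, and 2 without Irf8KO Flt3- array 1 or without either WT Flt3- array. Quantile scaling gave 1 gene lower and 14 higher with a median of 0.12, while over all genes it gave 3084 lower and 3781 higher, against 3338 lower and 3109 higher with the main scaling. Centring on the median of the genes tested gave 2 lower and 8 higher.

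Genotypes were compared next within each population. In Flt3- GPs the ribosome biogenesis genes were lower in Irf8KO than in WT. Of the 37 genes 33 were called lower in Irf8KO Flt3- GPs and 1 higher, while 27.1% of all genes were called lower and 16.4% higher. The median difference was -0.40, beside -0.035 for all genes, and in both experiments it was close to that, at -0.38 and -0.37. Both Irf8KO Flt3- arrays lay below both WT Flt3- arrays for 35 of the 37 genes, against 42.8% of all genes, and above them for 1, against 32.4%. The adjusted p of the called genes ran from 0.000285 to 0.0421. This comparison and that of the WT populations share the WT Flt3- arrays, in which the genes were highest.

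Both RNA polymerase I subunits, all 8 snoRNP genes, all 12 small subunit factors, 7 of the 10 large subunit factors and 4 of the 5 abundant nucleolar proteins were called lower in Irf8KO Flt3- GPs. Under quantile scaling Polr1b (-0.24), Fbl (-0.23) and Noc2l (-0.07) lost the call. The largest difference was that of Rrp12, a repeat protein that carries pre-ribosomes out of the nucleus in yeast. It had -0.22 and 0.07 in Irf8KO Flt3- GPs, against 0.70 and 0.68 in WT Flt3- GPs, so the pairs did not overlap although the Irf8KO values were far apart. Its signal was 1.70-fold lower (difference -0.76 ± 0.093 SE, adjusted p = 0.0019). Rrp1b had 0.89 and 0.70 in Irf8KO Flt3- GPs, against 1.58 and 1.49 in WT Flt3- GPs (difference -0.74 ± 0.074 SE, adjusted p = 0.00104). Nolc1 had 4.18 and 4.20 in Irf8KO Flt3- GPs, against 4.86 and 4.84 in WT Flt3- GPs (difference -0.66 ± 0.042 SE, adjusted p = 0.000294). Pno1 was 1.56-fold lower in Irf8KO Flt3- GPs, Bop1 1.49-fold lower, and Tsr1 and Ddx21 differed by -0.59 and -0.58. Polr1b had 2.44 and 2.59 in Irf8KO Flt3- GPs, against 2.79 and 2.85 in WT Flt3- GPs (difference -0.31 ± 0.089 SE, adjusted p = 0.0367). That call was lost without any one of the Flt3- arrays of either genotype or of the Irf8KO Flt3+ arrays. The Irf8KO Flt3+ arrays are not part of this comparison, so the losses do not point to a single array. The difference was -0.34 without WT Flt3- array 1 and -0.27 without WT Flt3- array 2. It was -0.23 without Irf8KO Flt3- array 1, -0.38 without Irf8KO Flt3- array 2 and -0.31 without either Irf8KO Flt3+ array.

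Noc3l was the gene that went the other way. This protein, whose yeast relative Noc3 acts in early large subunit assembly and in DNA replication, had 2.19 and 2.12 in Irf8KO Flt3- GPs, against 1.87 and 1.80 in WT Flt3- GPs (difference 0.31 ± 0.060 SE, adjusted p = 0.00882). It was higher in Irf8KO GPs of both populations and was not called between the populations of either genotype. Without WT Flt3- array 2 the difference was 0.28 with an adjusted p of 0.0566. Pes1, Wdr12 and Npm1 were not called, with differences of 0.01, -0.18 and -0.16. With quantile scaling Npm1 was called lower, at -0.28 (limma adjusted p = 0.0161). Its other probes differed by -0.24, -0.21 and -0.10, with adjusted p of 0.0193, 0.0371 and 0.259 over all probes. For Pes1, 2.28 and 2.34 in Irf8KO Flt3- GPs overlapped with 2.25 and 2.35 in WT Flt3- GPs, while another probe of the gene differed by -0.23 (adjusted p = 0.0647 over all probes). With the experiment as a block, Nob1 was no longer called (adjusted p = 0.0604), which left 33 genes, against 44.0% of all genes.

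In Flt3+ GPs the genotypes differed by little. Of the 37 genes 7 were called higher in Irf8KO Flt3+ GPs than in WT Flt3+ GPs and 1 lower, while 16.3% of all genes were called higher and 12.5% lower. The count of higher genes was thus near the share among all genes. The median difference was 0.09, beside 0.038 for all genes, but 0.02 with quantile scaling and 0.04 with the normexp background correction. Quantile scaling turned the split over all genes to 2177 lower and 1978 higher, against 1765 lower and 2294 higher. Both Irf8KO Flt3+ arrays lay above both WT Flt3+ arrays for 22 genes, against 38.9% of all genes, and below them for 3, against 27.7%. Npm1 had 8.05 and 8.18 in Irf8KO Flt3+ GPs, against 7.74 and 7.78 in WT Flt3+ GPs (difference 0.36 ± 0.063 SE, adjusted p = 0.0108). Its 3 other probes differed by 0.24 to 0.37. Wdr43, a processome protein with WD repeats, had 3.09 and 3.15 in Irf8KO Flt3+ GPs, against 2.82 and 2.92 in WT Flt3+ GPs (difference 0.25 ± 0.054 SE, adjusted p = 0.0204). Its other probe differed by 0.06. Nop16 had 2.69 and 2.68 in Irf8KO Flt3+ GPs, against 2.39 and 2.52 in WT Flt3+ GPs (difference 0.23 ± 0.065 SE, adjusted p = 0.0464). Pes1 and Noc3l were higher by 0.23 each, Utp15 by 0.22 and Ncl by 0.16. The other probe of Ncl differed by -0.16, so its direction depends on the probe. For Nop56, Nolc1, Nip7 and Ddx21, which were not called here, the other probe also had the opposite sign. Rrp1b was the gene called lower, with 1.18 and 1.14 in Irf8KO Flt3+ GPs, against 1.40 and 1.44 in WT Flt3+ GPs (difference -0.26 ± 0.074 SE, adjusted p = 0.0495). Among the 37 genes, Rrp1b alone was called lower in Irf8KO GPs of both populations.

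These 8 calls were weak. The count was 0 without Irf8KO Flt3+ array 2, 1 without Irf8KO Flt3+ array 1, 3 without WT Flt3+ array 1 and 4 without either WT Flt3- array. With the experiment as a block it was 6, against 28.3% of all genes, since Ncl (adjusted p = 0.0527) and Nop16 (0.0554) were lost.

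**Figure D3:**
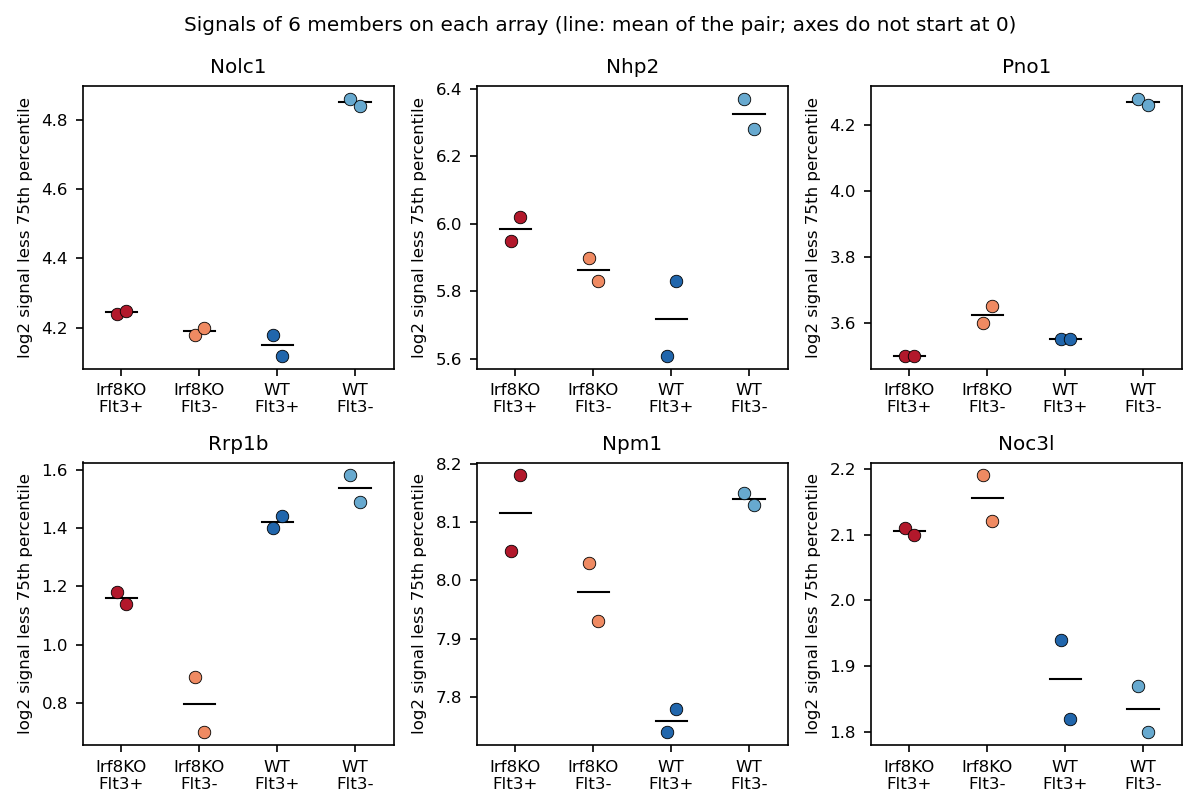
Log2 signal, less each array's 75th percentile, for Nolc1, Nhp2, Pno1, Rrp1b, Npm1 and Noc3l on each array, with 2 points for each group and a line at their mean (axes do not start at 0). Nolc1, Nhp2 and Pno1 are highest in WT Flt3- GPs, Rrp1b is lower in Irf8KO than in WT in both populations, Npm1 is lowest in WT Flt3+ GPs, and Noc3l is higher in Irf8KO GPs of both populations.

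The difference between genotypes was itself compared between the populations, as the interaction in the same fit (Irf8KO minus WT in Flt3+ GPs, less Irf8KO minus WT in Flt3- GPs). It was positive and called for 33 of the 37 genes and negative and called for 0, while 21.3% of all genes were called positive and 9.45% negative. The median was 0.52, beside 0.068 for all genes, and the adjusted p of the called genes ran from 0.00161 to 0.0454. The same value is the Flt3+ minus Flt3- difference of Irf8KO GPs less that of WT GPs. Nob1, Pes1, Wdr12 and Noc3l were not called, with values of 0.21, 0.22, 0.30 and -0.09. Quantile scaling lost 5 of the calls, those of Polr1b, Fbl, Gar1, Heatr1 and Noc2l. With the experiment as a block Pes1 was called too (adjusted p = 0.049), which made 34 genes, against 31.2% of all genes. The block left the calls of the population comparisons at 35 in WT and 5 in Irf8KO, against 62.2% and 46.4% of all genes.

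By the main probes the largest interactions were those of Nolc1, Nhp2 and Nop16. Another probe of Nolc1 gave 0.43, and another probe of Ddx21 gave 0.81, above the 0.57 of its main probe. For Nolc1 the genotypes differed by 0.10 in Flt3+ GPs and by -0.66 in Flt3- GPs, an interaction of 0.76 ± 0.059 (SE; adjusted p = 0.00161). The 0.10 was not called, and the other probe of Nolc1 differed by -0.07 in Flt3+ GPs. Nhp2 had 5.95 and 6.02 in Irf8KO Flt3+ GPs, 5.90 and 5.83 in Irf8KO Flt3- GPs, 5.61 and 5.83 in WT Flt3+ GPs, and 6.37 and 6.28 in WT Flt3- GPs. The WT Flt3- pair was the highest and the WT Flt3+ pair the lowest, and the interaction was 0.73 ± 0.12 (SE; adjusted p = 0.00897). Nop16, a nucleolar protein of the pre-60S particle, had 2.62 and 2.74 in Irf8KO Flt3- GPs and 3.15 and 3.1 in WT Flt3- GPs beside the Flt3+ values above, and its interaction was 0.67 ± 0.091 (SE; adjusted p = 0.00542). By role, the median interaction ran from 0.42 for the RNA polymerase I subunits to 0.63 for the box H/ACA proteins. Nip7 showed 0.61 by its main probe and 0.00 by the other.

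Some of these calls were lost when an array was left out, while the interactions stayed positive. For Polr1b the interaction was called only without WT Flt3+ array 2 among the 8 fits that left out an array. In the other 7 it was 0.33 to 0.51. Rrp12 was lost without any one of the Flt3+ arrays of either genotype or of the WT Flt3- arrays, with interactions of 0.56 to 0.58. Rrp1b was lost without WT Flt3+ array 1 (0.46), WT Flt3- array 1 (0.44), Irf8KO Flt3+ array 1 (0.46) or Irf8KO Flt3+ array 2 (0.51). The losses came without arrays of several groups, so they do not point to a single array.

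The pathway genes outside the 37 were compared in the same way, with 127 measured of 128 listed. Of these, 98 were lower and 5 higher in WT Flt3+ than in WT Flt3- GPs (median -0.32), against 39.1% and 22.6% of all genes. In Irf8KO Flt3- GPs 86 were lower and 1 higher than in WT Flt3- GPs (median -0.27), against 27.1% and 16.4%. Between the Irf8KO populations 10 were lower and 16 higher (median 0.03), below the shares over all genes of 23.7% and 22.0%. Between genotypes in Flt3+ GPs 2 were lower and 19 higher (median 0.07), near or below the shares over all genes of 12.5% and 16.3%. The interaction was called positive for 84 and negative for 1 (median 0.35), against 21.3% and 9.45% of all genes. Among them Ltv1, an assembly factor of the pre-40S particle, did not follow the 37 genes. It had 3.43 and 3.51 in Irf8KO Flt3+ GPs and 4.15 and 4.20 in Irf8KO Flt3- GPs, and 3.32 and 3.38 in WT Flt3+ GPs and 4.26 and 4.09 in WT Flt3- GPs, so that it was lower in Flt3+ GPs of both genotypes (differences -0.70 and -0.82). Ubtf, the architectural factor of RNA polymerase I transcription, was higher in Irf8KO Flt3+ GPs, with 7.33 and 7.34 against 6.81 and 6.74 in WT Flt3+ GPs (difference 0.56 ± 0.086 SE, adjusted p = 0.00677). Ftsj3, an rRNA processing factor related to yeast Spb1, had 1.46 and 1.55 in Irf8KO Flt3- GPs, against 2.21 and 2.16 in WT Flt3- GPs (difference -0.69 ± 0.053 SE, adjusted p = 0.000496).

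**Figure D4:**
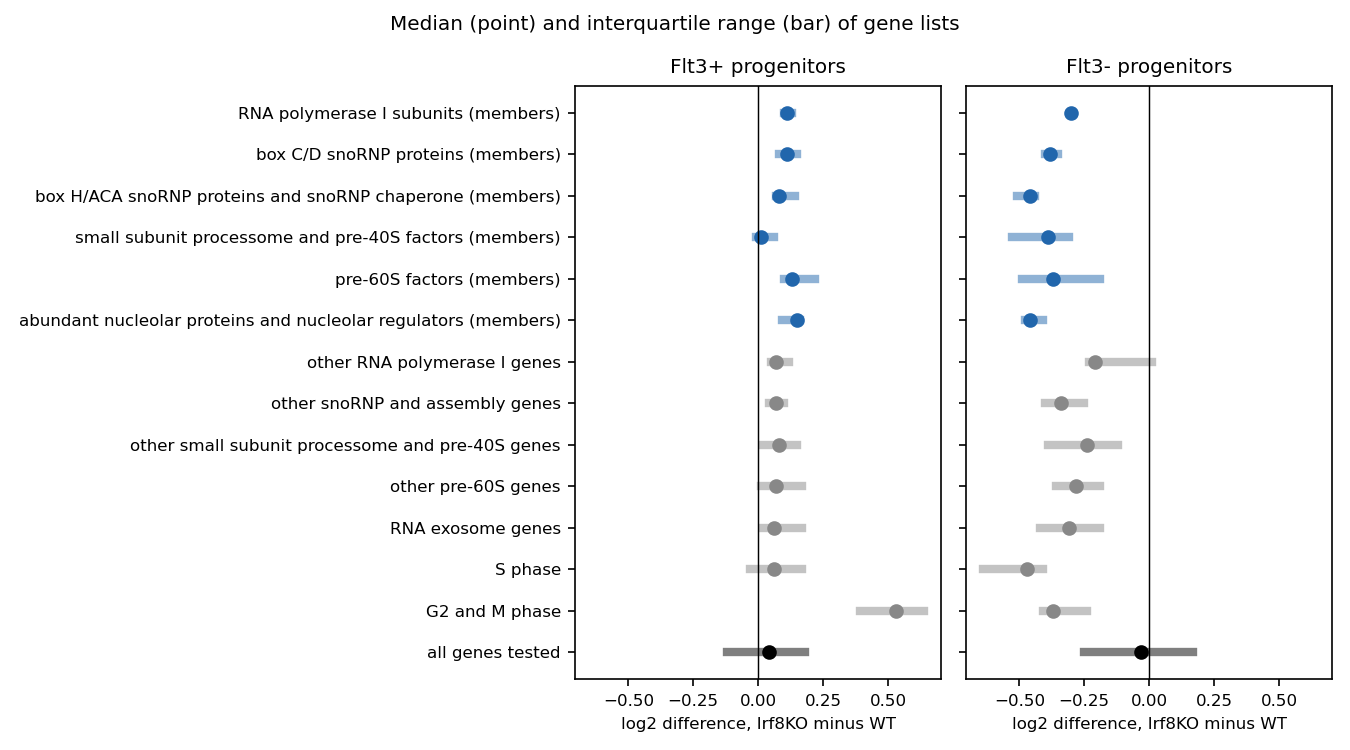
Median (point) and interquartile range (bar) of the log2 difference Irf8KO minus WT over the genes of each list, in Flt3+ GPs (left) and Flt3- GPs (right), with the 37 ribosome biogenesis genes by role in blue, other lists in grey and all genes tested in black. In Flt3- GPs the medians by role lie between -0.46 and -0.30 and that of all genes at -0.03, and in Flt3+ GPs the medians by role lie between 0.01 and 0.15.

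Cell cycle genes moved with the ribosome biogenesis genes in part. All 21 S phase genes listed were measured, and their summed signal was 710.7 to 726.1 in Irf8KO Flt3+ GPs, 639.1 to 642.3 in Irf8KO Flt3- GPs, 679.5 to 698.4 in WT Flt3+ GPs and 859.3 to 866.9 in WT Flt3- GPs, again highest in WT Flt3- GPs. Of these genes 19 were lower in WT Flt3+ than in WT Flt3- GPs, against 39.1% of all genes. In Irf8KO Flt3- GPs 20 were lower than in WT Flt3- GPs, against 27.1%. Between the Irf8KO populations 12 S phase genes were called higher and 1 lower in Flt3+ GPs (median 0.19), against 22.0% and 23.7% of all genes. The 18 genes of G2 and M phase had another order, with sums of 281.3 to 289.9 in Irf8KO Flt3+ GPs, 157.3 to 157.6 in Irf8KO Flt3- GPs, 191.6 to 202.2 in WT Flt3+ GPs and 190.9 to 193.4 in WT Flt3- GPs. Of these 18 genes 14 were lower and 0 higher in Irf8KO than in WT Flt3- GPs, against 27.1% and 16.4% of all genes. The interaction was called positive for 17 (median 0.83), against 21.3% of all genes. Between the WT populations 2 were lower and 5 higher, against 39.1% and 22.6%. All 18 were higher in Irf8KO Flt3+ than in Irf8KO Flt3- GPs, against 22.0%. The 10 eosinophil, basophil and mast cell markers were also highest in WT Flt3- GPs, with sums of 7.54 to 7.90 in Irf8KO Flt3+ GPs, 74.2 to 74.5 in Irf8KO Flt3- GPs, 15.7 to 16.4 in WT Flt3+ GPs and 151.1 to 151.5 in WT Flt3- GPs. Among those, Fcer1a was not well above background on either array of the 2 Irf8KO groups. The sums of 9 erythroid markers were 5.4 to 5.42 in Irf8KO Flt3+ GPs, 5.36 to 5.59 in Irf8KO Flt3- GPs, 50.1 to 50.4 in WT Flt3+ GPs and 24.2 to 24.7 in WT Flt3- GPs, with Alas2 not well above background in either Irf8KO group and Hbb-b2 and Klf1 also not in Irf8KO Flt3- GPs. Single erythroid markers differed between the WT populations by -3.95 to 1.84, so the WT sums hide opposite directions. The part of the cells of these marker lists and of cell cycle genes in the differences of the ribosome biogenesis genes was not tested.

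Bright genes had lower medians between the WT populations than dim ones, and most of the ribosome biogenesis genes are bright. When the genes tested were split into 4 equal groups by mean signal, a step added after seeing the data, 21 of the 37 fell in the brightest group of 3527 genes and 13 in the next. In the brightest group all genes had a median difference of -0.25 between the WT populations and 61.6% were called lower, while the 21 ribosome biogenesis genes had a median of -0.47 and all 21 were called lower. Between genotypes in Flt3- GPs the median was -0.41 for the 21 genes, with 20 called lower, and -0.11 for all genes of that brightness, with 42.2% called lower. For the interaction it was 0.55 for the 21 genes, all called positive, and 0.20 for all genes of that brightness, with 40.5% called positive.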

How the data were processed

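RNA of mouse granulocyte progenitors was measured on 8 one-colour arrays, 2 per group, 1 per experiment. Groups and experiment numbers come from the sample titles. Per the labels' protocols, total RNA was labelled with Cy3 by a low-input kit. The spot intensities were deposited as written by Agilent Feature Extraction 10.7.3.1 (protocol GE1_107_Sep09), per the file headers. They are processed signals on a linear scale with no scaling between arrays, and the flags, median spot and background intensities are also as deposited. By its values, the authors' deposited series table equals these intensities times 1 factor per array (0.672 to 1.33), linear and not centred, with column medians from 26.9 to 29.9. The sources used here do not say how it was made, and it served as an alternative only.

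Control and outlier spots were left out, spots of a probe averaged, and log2 of the deposited intensity taken with each array's 75th percentile subtracted. Probes flagged well above background on the 2 arrays of any group were kept. Of 55681 probes 26762 were named through RefSeq accessions (GRCm38.p6). The probe with the highest mean stood for a gene, which left 14109 genes. The 37 genes had 48 probes, and 28 of them had 1 probe. In limma 3.58.1 (R 4.3.3), group means were fitted over all 8 arrays, variances moderated (residual degrees of freedom 4, prior 1.77) and p-values adjusted by Benjamini-Hochberg over all genes. The fit was tested on simulated data.

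The 37 genes, the role, pathway and marker lists and the tests were chosen with earlier results of these data known. Values on every array are given for the called gene with the largest population difference in WT by role, the 3 largest in each other comparison, and genes called against the majority. Up to 2 pathway genes per direction and comparison were named by size. Of the listed pathway symbols 3 could not be matched.

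The titles number the experiments, so same-numbered arrays were treated as paired in an alternative with the experiment as a block. Deviations of same-numbered arrays from their group means correlated at r = -0.0209 to 0.111 across genes. Slide and scan were shared by all arrays, which gives no batch to test. The other settings were quantile normalization, centring on the median, normexp (offset 50) on the median intensities, the series table, no filter and a stricter filter on dim probes, the mean over probes, every probe alone, only the groups compared, and each array left out. The number of arrays limits the precision.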

Additional observations from a re-analysis of the deposited data

Results flagged for a closer look

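For 33 of the 37 genes the difference between genotypes differed between the populations, by the test of the interaction in limma at an adjusted p under 0.05. The values below are the interactions in log2, Irf8KO minus WT in Flt3+ GPs less Irf8KO minus WT in Flt3- GPs, and all of them are positive. Among the RNA polymerase I subunits the value was 0.39 for Polr1a and 0.44 for Polr1b. For the box C/D proteins it was 0.43 for Fbl, 0.50 for Nop56, 0.42 for Nop58 and 0.57 for Rrp9. For the box H/ACA proteins and their chaperone it was 0.52 for Dkc1, 0.73 for Nhp2, 0.46 for Gar1 and 0.76 for Nolc1. Of the small subunit scaffolds Heatr1 had 0.37, Utp15 0.43, Wdr43 0.56, Wdr75 0.51 and Utp20 0.43. The other small subunit factors had 0.34 for Nop14, 0.52 for Noc4l, 0.36 for Bms1, 0.54 for Tsr1, 0.57 for Rrp12 and 0.59 for Pno1. Among the large subunit factors Bop1 had 0.56, Nop2 0.54, Nop16 0.67 and Rrp1b 0.48, while Noc2l had 0.32, Rrs1 0.55 and Nip7 0.61. The abundant nucleolar proteins had 0.62 for Ncl, 0.52 for Npm1, 0.57 for Gnl3, 0.57 for Ddx21 and 0.56 for Mybbp1a. With quantile normalization the calls of Polr1b (0.33), Fbl (0.16), Gar1 (0.16), Heatr1 (0.11) and Noc2l (0.10) were lost. In 9.45% of all genes the interaction was called negative and in 21.3% positive, so positive calls were also the more common ones over all genes, though not with quantile normalization by as much (1876 negative and 1965 positive). Groups of 2 arrays are too small for a test of single outlying arrays.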

How the results depend on the processing

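Counts of the 37 genes called were compared across settings, changing one choice at a time. Between the WT populations 35 were called, 24 to 35 under the other settings and 32 to 35 when 1 array was left out. Between genotypes in Flt3- GPs 34 were called, 32 to 35 under the other settings and 29 to 35 with 1 array left out. For the interaction 33 were called, 28 to 34 under the other settings and 25 to 32 with 1 array left out. These ranges are for 1 probe per gene, and with every probe on its own 46, 40 and 40 of 48 probes were called. The 2 small comparisons changed more. Between the Irf8KO populations 5 were called, but 15 with quantile normalization, 10 with centring on the median, 2 with normexp, 2 with no filter on dim probes, 3 of 48 with every probe on its own, 1 with only the groups compared, and 0 to 6 with 1 array left out. Between genotypes in Flt3+ GPs 8 were called, but 4 with quantile normalization, 4 with normexp, 2 with no filter, 4 with the mean over probes, 2 with only the groups compared, and 0 to 7 with 1 array left out. With the experiment as a replicate block the counts were 35 between the WT and 5 between the Irf8KO populations, 33 between genotypes in Flt3- and 6 in Flt3+ GPs, and 34 for the interaction. Apart from the changes named above for Nob1, Pes1, Ncl and Nop16 the block changed no other call of the 37 genes. Over the genes named by the rule, 870 alternative values were made, of which 752 kept direction and side of the threshold, 117 kept the direction and lost the call, and 1 turned direction. That was Nop56 between the WT populations, at 0.03 with quantile normalization. Over all genes the interaction had 1876 negative and 1965 positive calls with quantile normalization, against 1334 and 2999 with the main scaling. The causes of these changes were not tested.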

Other observations

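Outside the 37 genes, other parts of the pathway were counted in the same comparisons. Of the 14 genes of the RNA exosome, which trims rRNA precursors, 12 were lower and 1 was higher in WT Flt3+ than in WT Flt3- GPs (median -0.39). Over all genes these shares were 39.1% and 22.6%. In Irf8KO Flt3- GPs 11 exosome genes were lower than in WT Flt3- GPs (median -0.31), against 27.1% of all genes. A positive interaction was called for 12 (median 0.44), against 21.3% of all genes. Exosc8 had 3.83 on both Irf8KO Flt3+ arrays, 3.66 and 3.75 in Irf8KO Flt3- GPs, 3.77 and 3.81 in WT Flt3+ GPs and 4.32 and 4.37 in WT Flt3- GPs, with an interaction of 0.68 ± 0.068 (SE; limma adjusted p = 0.00259). C1d, a cofactor of the nuclear exosome, was higher in WT Flt3+ than in WT Flt3- GPs (difference 0.69 ± 0.11 SE, adjusted p = 0.00268). The 9 other genes of RNA polymerase I transcription had 3 lower and 0 higher between the WT populations (median -0.19), where 39.1% of all genes were lower, and 3 lower and 0 higher between genotypes in Flt3- GPs (median -0.21), where 27.1% of all genes were lower.

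Some factors had other orders of the groups. Nol7, listed with the small subunit processome, was higher in Flt3+ than in Flt3- GPs of both genotypes, with -1.27 and -1.22 in Irf8KO Flt3+ GPs and -1.93 and -1.99 in Irf8KO Flt3- GPs, and -1.15 and -1.05 in WT Flt3+ GPs and -1.92 and -1.96 in WT Flt3- GPs. Utp14a, another processome protein, was lower in Irf8KO than in WT in both populations (differences -0.44 in Flt3+ and -0.71 in Flt3- GPs), as Rrp1b was among the 37. Its values were 0.15 and 0.13 in Irf8KO Flt3+ GPs, 0.19 and -0.20 in Irf8KO Flt3- GPs, 0.54 and 0.62 in WT Flt3+ GPs, and 0.72 and 0.69 in WT Flt3- GPs. Riok3 and Riok2, kinases of pre-40S maturation, went opposite ways between the Irf8KO populations, with differences of -0.55 ± 0.052 (SE; adjusted p = 0.000424) and 0.41 ± 0.045 (SE; adjusted p = 0.000756). Nufip1, an assembly factor of box C/D snoRNPs, was higher in Irf8KO than in WT Flt3- GPs (difference 0.45 ± 0.065 SE, adjusted p = 0.00338), the direction of Noc3l and not of the box C/D proteins themselves.

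The other marker lists followed other orders. The sums of 10 mature neutrophil markers were 38.7 to 39.5 in Irf8KO Flt3+ GPs, 34.3 to 34.4 in Irf8KO Flt3- GPs, 8.80 to 8.95 in WT Flt3+ GPs and 16.8 to 17.3 in WT Flt3- GPs. Single neutrophil markers differed between the WT populations by -2.76 to 2.63 (median 0.17), so the WT sums hide opposite directions. The 8 monocyte markers include Irf8, a bright gene whose RNA did not follow the genotype labels. They summed to 151.9 to 154.3 in Irf8KO Flt3+ GPs, 91.1 to 94.7 in Irf8KO Flt3- GPs, 102.9 to 106.6 in WT Flt3+ GPs and 67.3 to 67.6 in WT Flt3- GPs. Single monocyte markers differed between genotypes by -8.46 to 2.19 in Flt3+ GPs and by -8.08 to 2.10 in Flt3- GPs, so these sums hide opposite directions. The 10 lymphoid markers, of which Ebf1, Il7r and Rag1 were not well above background in Flt3- GPs of either genotype, summed to 268.3 to 289.6 in Irf8KO Flt3+ GPs, 103.3 to 105.1 in Irf8KO Flt3- GPs, 152.0 to 159.5 in WT Flt3+ GPs and 110.5 to 111.2 in WT Flt3- GPs. For the 9 dendritic cell markers, which include Flt3, the sums were 308.3 to 313.2 in Irf8KO Flt3+ GPs, 234.9 to 252.0 in Irf8KO Flt3- GPs, 268.2 to 300.8 in WT Flt3+ GPs and 190.4 to 204.5 in WT Flt3- GPs. Single dendritic cell markers differed between genotypes in Flt3+ GPs by -3.99 to 2.09 (median -0.18), so these sums hide opposite directions too. The 6 megakaryocyte markers summed to 1.74 to 1.78 in Irf8KO Flt3+ GPs, 3.16 to 3.25 in Irf8KO Flt3- GPs, 6.21 to 6.61 in WT Flt3+ GPs and 5.46 to 5.54 in WT Flt3- GPs. Between the WT populations single megakaryocyte markers differed by -1.94 to 3.79 and single lymphoid markers by -2.14 to 8.04.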
